A study of Citrus reticulata and Citrus x clementina and Citrus x paradisi with 16 samples.

Results

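Ovules of the polyembryonic 'Cocktail' grapefruit (GF, Citrus paradisi) were compared with ovules of the monoembryonic 'Huanong red' pummelo (PU, Citrus grandis) at the stage named pre-NEI, the day of flowering (0 days after flowering). The comparison used 4 of the 16 mRNA-seq libraries of the series, 2 of GF and 2 of PU, chosen by the cultivar and stage in their labels. The 4 libraries of GF and PU sampled at 3 days after flowering entered the model only to estimate the spread between replicates. Of 22595 loci assembled for this pair, 19943 reached 1 CPM (counts divided by the library total in megacounts) in at least 2 of the 8 libraries and were tested. According to the methods of the study, adult trees of both cultivars grew in 1 repository, were hand-pollinated at anthesis with trifoliate orange, and gave ovules pooled over several trees, and replicates were collected in consecutive years.

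Citrus seeds normally hold a sexual embryo formed from the fertilised egg. In polyembryonic cultivars additional embryos arise without fertilisation from the nucellus, the maternal tissue around the embryo sac, a form of apomixis called nucellar embryony (NE). The initial cells of such embryos are known by their dense cytoplasm, large nucleus and thickened wall, and pre-NEI is the stage before they were seen in GF. In PU the stage name marks only the matching day. The question behind the comparison was which transcripts already differ between poly- and monoembryonic ovules at that point. With 1 cultivar of each kind, the effect of embryony and those of other cultivar differences cannot be told apart, and in whole ovules fewer cells of a type cannot be told apart from less RNA per cell.

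The summed counts of loci were 18.7 and 34.2 megacounts in GF replicates 1 and 2, against 18.5 and 11.8 megacounts in PU replicates 1 and 2. An absence of counts therefore allowed up to 0.166 and 0.0945 CPM in GF and 0.163 and 0.24 CPM in PU (3 counts per library). Correlations of log2 values across loci were 0.959 between the GF replicates and 0.941 between the PU replicates, and 0.851 to 0.915 between cultivars. All CPM values are scaled by the total count and a normalisation factor per library. They are not divided by transcript length, so levels are compared only between cultivars and not between genes.

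GF ovules carried more transcript of a laccase, a hydroxycinnamoyltransferase, a pectinesterase and a sodium/proton antiporter, among others. They carried less of a Rubisco small subunit, a tropinone reductase and a calcium-dependent protein kinase. The differences of the pectinesterase, the antiporter, the Rubisco subunit and the kinase did not pass the test in some fits without 1 library, as given below. In all, 1310 of the 19943 tested loci (6.57%) differed, with an adjusted p of the edgeR quasi-likelihood test under 0.05 and a log2 fold change of 1 or more in size, and such loci are referred to as called. Of these, 845 were higher in GF (4.24% of tested loci) and 465 were lower in GF (2.33%). The median log2 fold change over all tested loci was close to 0 (-0.0029), and the median absolute value was 0.59.

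The median fitted difference was larger among loci higher in GF. Loci higher in GF had a median log2 fold change of 4.26, with 10th and 90th percentiles of 1.73 and 8.67, and 586 of them were at 3 or more. Loci lower in GF had a median of -2.87, with percentiles of -7.50 and -1.45, and 223 of them were at -3 or less. These medians include fitted values of loci without a count in 1 cultivar, which are no bounds. Such loci made up 20.8% of those higher and 10.5% of those lower in GF, so the medians do not show which direction had the larger differences. In every called locus both libraries of GF lay on the same side of both libraries of PU, against 29% (GF above) and 25.5% (GF below) among all tested loci. This follows largely from the calling rule on the same values and is no further evidence for the calls.

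Many calls were between presence and absence of counts. Over all tested loci, 251 had no count in either PU library and 112 had none in either GF library. The PU libraries held fewer counts, as given above. Of the 845 loci higher in GF, 176 (20.8%) had no count in either PU library, and 82 of these carried exactly 1 reference gene. Set against 3 counts per library, their folds were at least 2.86 to at least 394, with a median of at least 11.7. Of the 465 loci lower in GF, 49 (10.5%) had no count in either GF library, 16 of them with exactly 1 reference gene, and folds ran from at least 5.28 to at least 906 (median at least 19.1). A further 150 loci higher in GF had only 1 to 3 counts in PU, and 54 loci lower in GF had only 1 to 3 counts in GF. Both cultivars were mapped to the sweet orange genome, and the part of sequence differences between them in these counts was not tested.

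Loci without a reference gene were called more often (424 of 3568, 11.9%) than loci with exactly 1 (770 of 14968, 5.14%), and made up 32.4% of the calls higher in GF and 32.3% of those lower in GF, against 17.9% of all tested loci. Called loci had lower counts, with a median of 4.48 CPM (higher in GF) and 7.27 CPM (lower in GF) over the 4 libraries, against 16.1 CPM in loci that were not called. The direction differed by level. Under 1 CPM 110 loci were higher and 48 lower in GF, at 1 to 3 CPM 239 and 94, and at 3 to 10 CPM 191 and 120. Among loci of 10 to 30 CPM, 125 were higher and 125 lower in GF, and at 30 to 100 CPM 103 and 65. Among the 2606 loci of 100 CPM and over, 77 were higher and 13 lower in GF. The share called was 5% to 7.76% on every chromosome and 9.17% on unplaced sequence. Loci that overlapped another tested locus made up 38.2% of calls and 33.4% of all loci, and 218 called loci overlapped another called locus, so neighbouring calls may hold the same reads.

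The number of calls depended on single libraries. It was 317 without GF replicate 1, 101 without GF replicate 2, 218 without PU replicate 1 and 346 without PU replicate 2, and 90 loci (70 higher and 20 lower in GF) were called with all libraries and in each of the 8 fits without 1 library. The share of calls that were higher in GF was 64.5% with all libraries, and 76.3%, 80.2% and 53.7% without GF replicate 1, GF replicate 2 and PU replicate 1. With only the 4 pre-NEI libraries in the fit 533 loci were called. The p-values of the fit with all libraries measure the spread between replicates pooled over both stages, with 2 libraries per cultivar and stage.

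**Figure D1:**
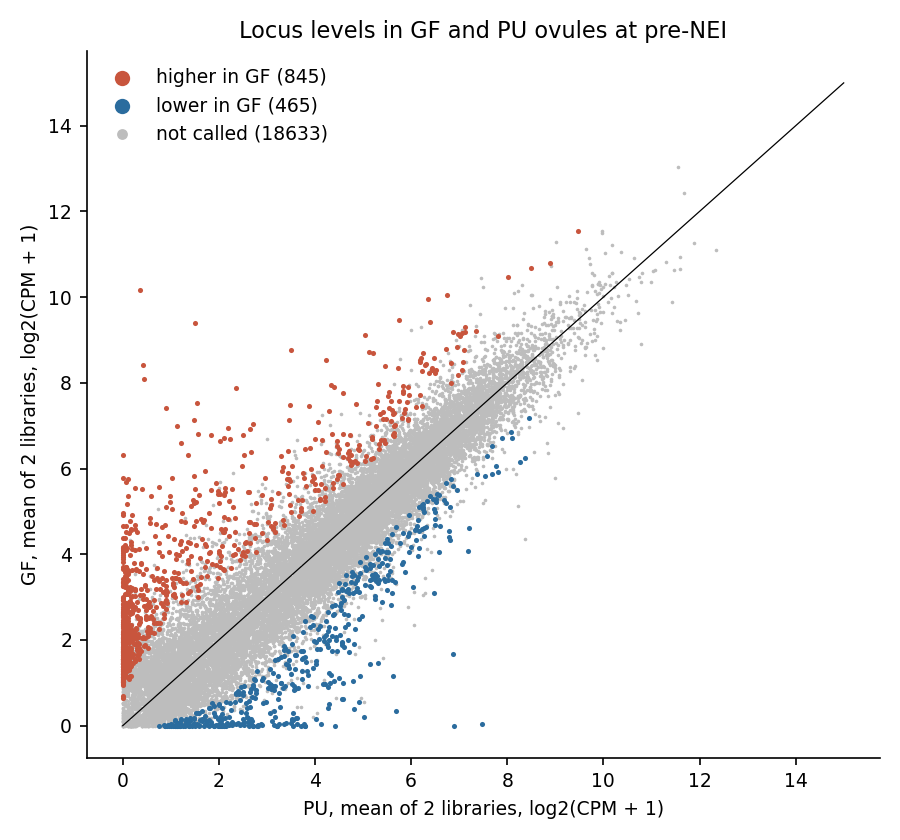
Mean level of each tested locus in GF ovules (vertical axis) against PU ovules (horizontal axis) at pre-NEI, as log2(CPM + 1) over 2 libraries each, with red points for the 845 loci higher in GF, blue points for the 465 lower in GF, grey points for the 18633 not called and a line of equal levels. Red points gather along the left edge, where PU had no or few counts, and red exceeds blue at the highest levels.

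Genes of the study's list of differential genes are grouped below by the functions that the study's tables assign. The groups themselves were formed here. Of the 207 rows of that list, 99 had a function, and rows without one are not in the groups. The list was chosen by the study partly on these 4 libraries. The high share of grouped members called (33 of 75 tested loci, 18 higher and 15 lower in GF, 44% against 6.57% of all loci) is thus not independent evidence. Over the 75 loci the median log2 fold change was 1.18. DESeq2 called 51 of the 75 and the edgeR exact test 49, against 13.1% and 10.9% of all loci, and their counts are given below for several groups.

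Enzymes of phenylpropanoid metabolism, which makes lignin precursors and flavonoids, and methyltransferases related to it comprised 7 tested loci, of which 2 were higher and 1 was lower in GF (median log2 fold change 3.35). DESeq2 and the exact test each called 5 of the 7. Hydroxycinnamoyl CoA shikimate/quinate hydroxycinnamoyltransferase (HCT, Cs1g11780, XLOC_000327, chromosome 1, 14372772 to 14375599 of the sweet orange genome), an enzyme of the lignin branch, had 21.2 and 10.9 CPM in GF and no count in either PU library, which was at least 79.5-fold (adjusted p 0.00814). A catechol O-methyltransferase related locus (XLOC_010427, chromosome 5, 18137445 to 18356803) had 13.1 and 36.0 CPM in GF, against 0.163 and 0.240 CPM in PU. It was 122-fold higher in GF (log2 fold change 6.92 ± 0.75, SE, n = 2 libraries per cultivar, edgeR adjusted p 0.00669), and its log2 ratio in the authors' pooled FPKM was 5.58.

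In the opposite direction, the locus of an anthranilate N-methyltransferase, an enzyme of acridone alkaloid synthesis in Ruta (ANMT-2, XLOC_009450), had 26.8 and 13.5 CPM in GF, against 138 and 80.9 CPM in PU (-2.45 ± 0.53, edgeR adjusted p 0.0390). The ranges did not overlap, as in every called locus. However, this locus spans 7 reference genes and the count may not be that of the enzyme alone. The catechol O-methyltransferase locus spans 2. The calls of HCT and of the catechol O-methyltransferase locus held without any 1 library. ANMT-2 lost its call without any 1 library of GF or PU at pre-NEI or of GF at 3 days (adjusted p up to 0.235), at a minimum of 5 CPM (0.0501), with only the 4 pre-NEI libraries (0.0617) and with counts summed over transcripts (0.0797, log2 fold change -1.69), and its log2 ratio of pooled FPKM was -1.44. Of the loci not called, picked out after their values were seen, leucoanthocyanidin reductase 1, of proanthocyanidin synthesis, had 29.9 and 19.4 CPM in GF, against 4.29 and 0.401 CPM in PU (XLOC_014753, 3.35 ± 0.84, edgeR adjusted p 0.0591). An O-methyltransferase had 35 and 2.27 CPM in GF, against 0.597 and 0.0801 CPM in PU, and so varied most between the GF replicates (XLOC_015124, 5.66 ± 1.69, adjusted p 0.0978).

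Cell wall enzymes and glycosyltransferases comprised 8 tested loci, of which 2 were higher and none lower in GF (median log2 fold change 2.04). DESeq2 called 6 and the exact test 5. Laccase LAC (Cs6g07400, XLOC_011655, chromosome 6, 9231008 to 9234353), of a family of copper oxidases that polymerise lignin in the wall, had 71.1 and 136 CPM in GF, against 3.15 and 3.45 CPM in PU (4.98 ± 0.54, edgeR adjusted p 0.00669). Pectinesterase 2 (PME2, orange1.1t00214, XLOC_020325, unplaced sequence, 4273313 to 4275868), which removes methyl groups from wall pectin, had 17.9 and 22.9 CPM in GF, against 0.543 and 0.641 CPM in PU (5.10 ± 0.72, adjusted p 0.0134). These were 31.5-fold and 34.5-fold higher levels in GF, and the PU replicates lay close to each other. LAC held without any 1 library, while PME2 lost its call without GF replicate 2, PU replicate 1 or PU replicate 2 (adjusted p up to 0.0839).

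The other 6 cell wall and glycosyltransferase loci were not called, and some of them differed more between replicates than between cultivars. UDP-glycosyltransferase 92A1-like, of the enzymes that transfer sugars to small molecules, had 2.05 and 3.43 CPM in GF, against 0.109 and 0.401 CPM in PU (XLOC_021152, 3.48 ± 1.27, edgeR adjusted p 0.156, against 0.0232 by DESeq2, 0.0200 by the exact test and 0.0431 with summed transcripts). UDP-glycosyltransferase 76C4 had 1.94 and 8.79 CPM in GF, against 0.760 and 1.04 CPM in PU (XLOC_017993, 2.59 ± 0.98, edgeR adjusted p 0.168, against 0.0494 by DESeq2 and 0.0571 by the exact test). Arabinofuranosidase (XLOC_017543), which trims arabinose from wall polysaccharides, had 233 and 1537 CPM in GF replicates 1 and 2, against 86.9 and 719 CPM in PU replicates 1 and 2. It was far higher in replicate 2 of both cultivars and the cultivar ranges overlapped (1.14 ± 1.07, edgeR adjusted p 0.553). Such a shift by replicate number in both cultivars was also seen, in loci picked out after their values were seen, in BURP domain-containing protein 17-like (XLOC_016066, 2.11 and 12.4 CPM in GF, against 16.2 and 134 CPM in PU) and, in the other direction, in the pectinesterase-2 precursor (XLOC_005826, 17.3 and 0.599 CPM in GF, against 32 and 1.84 CPM in PU).

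**Figure D2:**
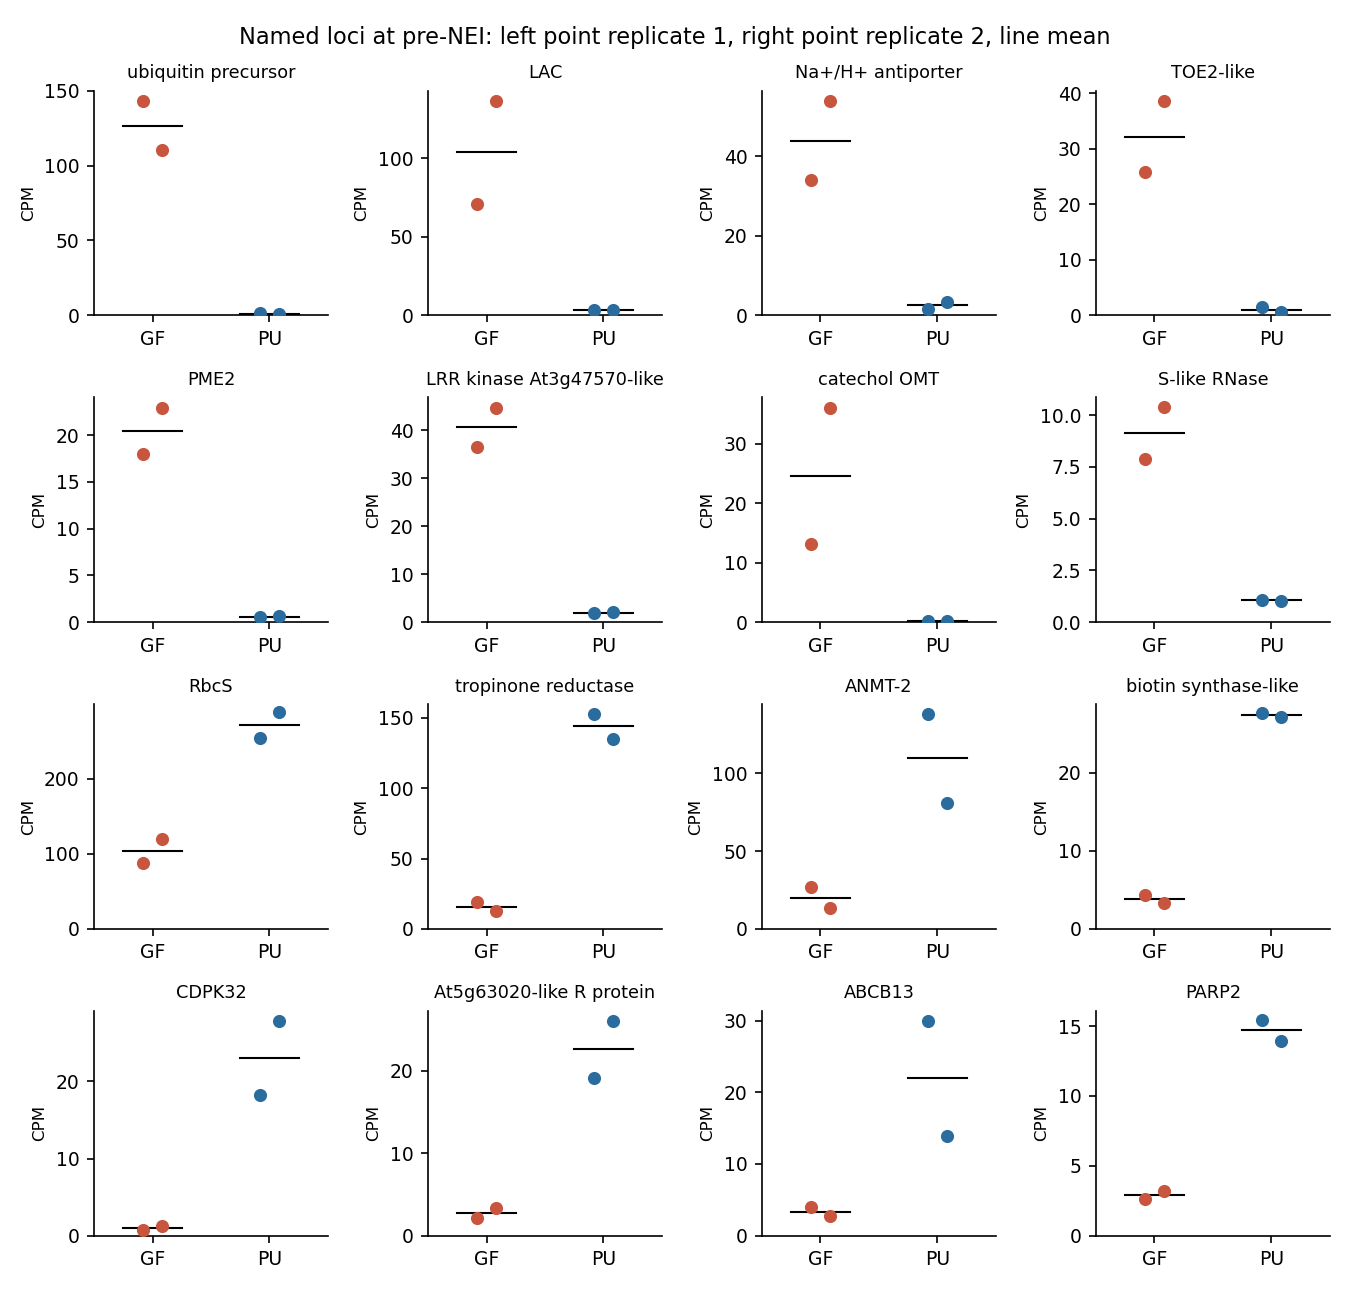
Levels in CPM of 16 named called loci in each library at pre-NEI, GF in red on the left and PU in blue on the right of each panel, with replicate 1 as the left point, replicate 2 as the right point and the mean as a line (each vertical axis starts at 0 and has its own scale). The upper 8 loci are higher and the lower 8 lower in GF, and in no panel do the points of the cultivars overlap, as in every called locus.

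Among pathogenesis-related genes, whose products attack microbial walls or RNA, 2 of 5 tested loci were higher and none lower in GF, and in all 5 both GF libraries lay above both PU libraries, as in 29% of all tested loci (median log2 fold change 3.09). The list was chosen partly on these libraries. An S-like ribonuclease (Cs7g03770, XLOC_014417, chromosome 7, 1743669 to 1745374) had 7.87 and 10.4 CPM in GF, against 1.09 and 1.04 CPM in PU (3.09 ± 0.42, edgeR adjusted p 0.0120). Thaumatin-like protein 1 (XLOC_019695) had 1.94 and 2.65 CPM in GF, against 0.109 and 0 CPM in PU, a ratio of 36.9 with a 95% counting interval of 10 to 309 (adjusted p 0.0484). In PU this transcript was at the limit of detection. Chitinase CHI (XLOC_009377) had 1.11 and 2.96 CPM in GF, against 0.109 and 0.0801 CPM in PU, and the acidic endochitinase ACTL (XLOC_017926) had 8.59 and 19.9 CPM in GF, against 4.67 and 5.85 CPM in PU. CHI did not pass the edgeR quasi-likelihood test (adjusted p 0.0557) but passed DESeq2 (0.00584) and the edgeR exact test (0.00204), and ACTL passed none of the 3 (edgeR quasi-likelihood adjusted p 0.153). The S-like ribonuclease lost its call without GF replicate 2, PU replicate 1 or PU replicate 2 (adjusted p up to 0.0735), and thaumatin-like protein 1 without any 1 library except those of PU at 3 days (up to 0.192), without a filter (0.0511) and with only the 4 pre-NEI libraries (0.0648).

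Of 7 oxidative stress loci, 1 was higher and none lower in GF (median log2 fold change 1.55), while DESeq2 and the exact test each called 4. This was phospholipid hydroperoxide glutathione peroxidase (PHGPx, Cs1g10745, XLOC_000299, chromosome 1, 13012792 to 13015484), which reduces lipid peroxides in membranes. It had 8.31 and 11.9 CPM in GF, against 0.109 and 0 CPM in PU, a ratio of 164 with a 95% counting interval of 45.2 to 1357.1 (7.19 ± 0.89, edgeR adjusted p 0.00915). Without GF replicate 2 its adjusted p was 0.0576. Of the loci that were not called, 3 of 4 class III peroxidases had both GF libraries above both PU libraries (29% among all tested loci), among them peroxidase-1 with 157 and 227 CPM in GF, against 76.7 and 54.2 CPM in PU (XLOC_019444, a locus of 4 reference genes, 1.55 ± 0.45, edgeR adjusted p 0.0906). Metallothionein, a metal-binding protein, had 235 and 156.4 CPM in GF, against 431 and 295 CPM in PU (XLOC_000193, -0.89 ± 0.36, adjusted p 0.186). These loci were picked out after their values were seen.

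Cytochrome P450 and lipoxygenase loci numbered 5, with none higher and 1 lower in GF (2 called by DESeq2 and by the exact test). A cytochrome P450 (CYP-2, Cs3g22160, XLOC_005424), of a family of oxygenases with many plant substrates, had 0.997 and 0.851 CPM in GF, against 5.15 and 5.93 CPM in PU (-2.58 ± 0.53, edgeR adjusted p 0.0347). Its call was lost without any 1 pre-NEI library or 1 library of GF at 3 days (adjusted p up to 0.228), with only the 4 pre-NEI libraries (0.0651) and with summed transcripts (0.0588).

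Kinases and resistance proteins, which perceive and relay pathogen and developmental signals, were called in both directions, with 4 higher and 5 lower in GF of 13 tested loci (69.2%, median log2 fold change 1.68). DESeq2 and the exact test each called 12 of the 13. A serine-threonine protein kinase (STK-2, Cs6g16020, XLOC_012706, chromosome 6, 16966224 to 16970238) had 19.1 and 14.7 CPM in GF and no count in PU, at least 83.9-fold (adjusted p 0.0132). A second one (STK-1, Cs1g11710, XLOC_000324) had 9.36 and 9.14 CPM in GF, against 0.109 and 0 CPM in PU, a ratio of 143 with a 95% counting interval of 39.2 to 1180.2 (adjusted p 0.00889). Transcripts of these kinases were thus absent or at single counts in PU. A putative kinase (XLOC_003726) had 2.44 and 5.14 CPM in GF, against 0.109 and 0.160 CPM in PU. It was 28.2-fold higher in GF (4.79 ± 0.80, edgeR adjusted p 0.0198), with a log2 ratio of pooled FPKM of 6.34. A TIR-NBS-LRR resistance protein, of the intracellular receptors for pathogen effectors, had 1.83 and 1.64 CPM in GF and no count in PU (XLOC_010477, 2 reference genes), at least 8.6-fold (adjusted p 0.0238).

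The 5 loci of this group that were lower in GF included the calcium-dependent protein kinase 32-like gene (CDPK32, Cs9g06220, XLOC_017680, chromosome 9, 3773646 to 3776615), which couples calcium signals to phosphorylation, with 0.776 and 1.23 CPM in GF, against 18.2 and 27.8 CPM in PU (-4.49 ± 0.61, edgeR adjusted p 0.0120). Its log2 fold change was -5.23 with summed transcripts and -7.05 in pooled FPKM. Histidine kinase 1 (HK1, Cs1g25650, XLOC_000866), an osmosensor in Arabidopsis, had 2.05 and 0.473 CPM in GF, against 17.6 and 9.37 CPM in PU (-3.45 ± 0.71, adjusted p 0.0346). The G-type lectin receptor kinase CES101-like (Cs1g14830, XLOC_000421) had 0 and 0.0630 CPM in GF, against 4.01 and 5.13 CPM in PU. It was lower in GF by a factor of 111 (95% counting interval 30.2 to 927, adjusted p 0.00867). For each of these 3 kinases both GF libraries lay below both PU libraries, as in every locus called lower in GF (25.5% among all tested loci). A leucine-rich repeat protein (LRR-2, orange1.1t01917, XLOC_020801) had 0 and 0.189 CPM in GF, against 9.28 and 11.9 CPM in PU (-6.50 ± 0.89, edgeR adjusted p 0.0120). The disease resistance protein RGA4-like (XLOC_019884, 4 reference genes) had 3.27 and 3.37 CPM in GF, against 18.4 and 17.3 CPM in PU (-2.42 ± 0.40, adjusted p 0.0201). In the authors' pooled FPKM its log2 ratio had the other sign (0.54, and -1.47 with summed transcripts), so its direction is uncertain.

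Of these 9 calls, only those of CES101-like and LRR-2 held in each of the 8 fits without 1 library. Without GF replicate 2 every other call of the group was lost, which was the only loss for STK-1 (XLOC_000324, adjusted p 0.0571). STK-2 was also lost without PU replicate 1 (up to 0.0616), CDPK32 without GF replicate 1 (up to 0.0786), the putative kinase without either PU replicate (up to 0.113), and RGA4-like (XLOC_019884) without any 1 pre-NEI library (up to 0.131) or with summed transcripts (0.0579). The TIR-NBS-LRR locus was lost without any 1 pre-NEI library or 1 library of GF at 3 days (up to 0.110), and HK1 without any 1 library except GF replicate 1 (up to 0.120). With only the 4 pre-NEI libraries the TIR-NBS-LRR locus XLOC_010477 (0.0526) and HK1 (XLOC_000866, 0.105) were not called.

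Disease resistance genes of the NBS-LRR class could also be followed as the family that the study predicted as targets of miR482 and other miRNAs. That list was built on sequence and filtered with published citrus data on cleaved mRNAs, for miRNAs that the study found in ovules of these cultivars. Of 35 tested loci, 6 were higher and 2 were lower in GF (22.9% against 6.57% of all loci), while the median log2 fold change was 0.27 and 27 loci were not called. Of the 35, DESeq2 called 11 and the exact test 9 (13.1% and 10.9% among all loci). The largest difference was at XLOC_009314 (TMV resistance protein N-like, 2 reference genes, chromosome 5, 20187261 to 20233826), with 11.5 and 21.6 CPM in GF, against 0.0543 and 0.0801 CPM in PU. The ratio was 278, with a 95% counting interval of 76.6 to 2295 (7.85 ± 0.63, edgeR adjusted p 0.00409), and the log2 fold change was 6.40 with summed transcripts and 4.45 in pooled FPKM. Another TMV resistance protein N gene (Cs7g04730, XLOC_014457, chromosome 7, 2430859 to 2437239) had 34.0 and 42.5 CPM in GF, against 6.02 and 8.89 CPM in PU (2.36 ± 0.38, adjusted p 0.0179). The remaining 4 loci higher in GF were XLOC_000192 (log2 fold change 1.98), XLOC_009315 (3.92), XLOC_021635 (4.58) and XLOC_010478 (5.72), with means of 2.12 to 12.1 CPM in GF and 0.0401 to 3.05 CPM in PU. XLOC_009315 lies within XLOC_009314, so these 2 calls may hold the same reads. In pooled FPKM the log2 ratio was 2.79 for XLOC_000192 and 2.93 for XLOC_009315, and with summed transcripts it was 3.15 for XLOC_009315 and 4.77 for XLOC_010478.

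Of the 2 NBS-LRR loci lower in GF, the At5g63020-like gene (Cs1g13270, XLOC_000368) had 2.11 and 3.31 CPM in GF, against 19.1 and 26 CPM in PU (-3.05 ± 0.45, edgeR adjusted p 0.0144). The other, RGA3-like (XLOC_020802, 2 reference genes, unplaced sequence, 30425461 to 30430708), had 0 and 0.126 CPM in GF, against 7.49 and 2.64 CPM in PU (-5.97 ± 1.24, adjusted p 0.0360, and -7.28 in pooled FPKM). It lies beside LRR-2 (30413966 to 30415678), which was lower in GF as well. NBS-LRR genes occur as near-identical copies in plant genomes, and how reads were split between copies is not given in the sources used here. XLOC_009314 held without any 1 library. The At5g63020-like gene lost its call without GF replicate 1, GF replicate 2 or PU replicate 2 (adjusted p up to 0.0789), and the other 6 were lost without any 1 pre-NEI library. Their highest adjusted p was 0.238 for XLOC_000192, 0.177 for XLOC_009315, 0.106 for XLOC_014457, 0.122 for XLOC_010478, 0.126 for XLOC_021635 and 0.125 for XLOC_020802. The calls of XLOC_000192 and XLOC_009315 were also lost without any 1 library of 3 days, and that of XLOC_020802 without 1 library of PU at 3 days. With only the 4 pre-NEI libraries XLOC_000192 (0.110), XLOC_009315 (0.0835), XLOC_010478 (0.0595), XLOC_021635 (0.0576) and XLOC_020802 (0.0649) were not called, nor was XLOC_009315 with summed transcripts (0.0521).

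Of 6 transport loci, 2 were higher and 1 was lower in GF (median log2 fold change 4.05, or 2.36 with the locus without a count in PU at its bound). The Na+/H+ antiporter, which exchanges sodium for protons across membranes (orange1.1t01073, XLOC_020588, unplaced sequence, 17178163 to 17181392), had 34.0 and 53.9 CPM in GF, against 1.74 and 3.45 CPM in PU (4.09 ± 0.53, edgeR adjusted p 0.0105, and 4.88 in pooled FPKM). Pleiotropic drug resistance protein 1-like (PDR1, Cs1g18930, XLOC_000583, chromosome 1, 21996331 to 22003273), an ABC exporter of plant metabolites, had 7.92 and 15.3 CPM in GF, against 0.0543 and 0.0801 CPM in PU, a ratio of 195 with a 95% counting interval of 53.7 to 1611 (adjusted p 0.00598). Both transporters were at 3.45 CPM or less in each PU library. ABC transporter B family member 13-like (Cs3g26380, XLOC_006511) went the other way, with 3.93 and 2.74 CPM in GF, against 30 and 13.9 CPM in PU (-2.72 ± 0.50, edgeR adjusted p 0.0261). PDR1 held without any 1 library. The antiporter was lost without GF replicate 2 or PU replicate 1 (up to 0.0621), and ABCB13 without GF replicate 1, GF replicate 2 or PU replicate 1 (up to 0.176) and with only the 4 pre-NEI libraries (0.0650).

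Among 9 regulators of transcription and development 1 was higher and 1 was lower in GF (median log2 fold change 0.26), while DESeq2 and the exact test each called 4. The auxin-induced protein PCNT115 (Cs3g10570, XLOC_005920) had 26 and 22.2 CPM in GF, against 6.94 and 8.09 CPM in PU (1.68 ± 0.28, edgeR adjusted p 0.0197). An ankyrin repeat protein (orange1.1t05031, XLOC_020169) had 1.5 and 0.945 CPM in GF, against 9.28 and 7.37 CPM in PU (-2.78 ± 0.62, adjusted p 0.0427). PCNT115 lost its call without any 1 pre-NEI library (up to 0.109) and with only those 4 (0.0662), and the ankyrin repeat protein without any 1 of the 8 libraries (up to 0.277), with only the 4 pre-NEI libraries (0.0609) and at 5 CPM (0.0562). The remaining 7, among them the MADS box protein GHMADS-2, of a family that patterns flowers and ovules, with 317.5 and 241 CPM in GF, against 659 and 412 CPM in PU (XLOC_010424, -0.94 ± 0.33, adjusted p 0.146), were not called.

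Among the groups of the list, metabolism and protein turnover had the most calls lower in GF. They were 6 of 13 tested loci, against 3 higher (69.2%, median log2 fold change -2.06). Among all tested loci 2.33% were lower and 4.24% higher in GF. DESeq2 called 10 of the 13 and the exact test 9. The list was chosen partly on these libraries, so neither the share nor the direction is independent evidence. Tropinone reductase, of a family of short-chain dehydrogenases that reduce ketones (XLOC_016433, 2 reference genes, chromosome 8, 21473214 to 21497580), had 18.9 and 12.5 CPM in GF, against 153 and 135 CPM in PU. It was 9.15-fold lower in GF (-3.20 ± 0.29, edgeR adjusted p 0.00514). The biotin synthase-like gene (orange1.1t03697, XLOC_021301), for the last step of biotin synthesis, had 4.32 and 3.31 CPM in GF, against 27.6 and 27.1 CPM in PU (-2.84 ± 0.31, adjusted p 0.00669, and -7.01 in pooled FPKM). Protein disulfide isomerase-like 1-3 (orange1.1t03981, XLOC_021377), which folds proteins in the endoplasmic reticulum, had 2.66 and 3.31 CPM in GF, against 24.6 and 12.4 CPM in PU (-2.63 ± 0.42, adjusted p 0.0176). The cultivars overlapped in none of these 3 loci, as in every called locus, and the isomerase varied most between its PU replicates.

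The small subunit of Rubisco, the carbon-fixing enzyme of green tissue (RbcS, Cs6g18680, XLOC_012811, chromosome 6, 18696525 to 18698529), had 87.4 and 119 CPM in GF, against 254 and 289.7 CPM in PU (-1.40 ± 0.27, edgeR adjusted p 0.0309). The organ-specific protein S2 locus S2-1 (XLOC_016718, 2 reference genes) had 0.111 and 0.536 CPM in GF, against 7.11 and 29.6 CPM in PU (-5.69 ± 0.98, adjusted p 0.0217), and triosephosphate isomerase, a glycolytic enzyme, had 1.5 and 1.36 CPM in GF, against 7.54 and 4.33 CPM in PU (XLOC_009301, -2.06 ± 0.45, adjusted p 0.0403). The PU replicates of S2-1 lay far apart, but above both GF libraries. The 3 loci higher in GF were a probable carboxylesterase 2 (XLOC_016695, 2 reference genes), a catalytic subunit of phosphoribosylaminoimidazole carboxylase and cysteine proteinase 15A-like. The carboxylesterase had 5.93 and 4.54 CPM in GF and no count in PU, at least 26-fold (adjusted p 0.0151). The carboxylase, an enzyme of purine synthesis, had 14.7 and 15 CPM in GF, against 5.70 and 3.45 CPM in PU (XLOC_009322, 1.70 ± 0.38, edgeR adjusted p 0.0430). The proteinase had 1.11 and 1.92 CPM in GF, against 0.109 and 0 CPM in PU, a ratio of 25.1 with a 95% counting interval of 6.74 to 211 (XLOC_015091, adjusted p 0.0317).

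Of these 9 metabolic calls, that of tropinone reductase (XLOC_016433) held in each of the 8 fits without 1 library and the biotin synthase-like gene was lost only without GF replicate 2 (adjusted p 0.0619). The others were lost without either GF replicate, with highest adjusted p of 0.106 for XLOC_021377 (lost also without PU replicate 1), 0.131 for RbcS (any 1 pre-NEI library), 0.0919 for S2-1 (also PU replicate 2), 0.0686 for the carboxylesterase (also PU replicate 1) and 0.146 for the proteinase (any 1 library except GF replicate 1 at 3 days). Triosephosphate isomerase (up to 0.246) and XLOC_009322 (up to 0.192) were lost without any 1 of the 8 libraries and at 5 CPM (0.0510 and 0.0503). With only the 4 pre-NEI libraries XLOC_021377 (0.0603), RbcS (XLOC_012811, 0.0650), S2-1 (XLOC_016718, 0.0603), XLOC_009301 (0.120), XLOC_009322 (0.112) and the proteinase (XLOC_015091, 0.0927) were not called.

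Of 2 mobile element loci, an En/Spm-like transposon protein (orange1.1t00040, XLOC_020282, unplaced sequence, 682151 to 686523) had 10.3 and 23.3 CPM in GF and no count in PU. It was at least 83.2-fold higher in GF (adjusted p 0.0182), and was lost without GF replicate 2, PU replicate 1 or PU replicate 2 (up to 0.0846). Transposon families hold near-identical copies, so the locus of origin is uncertain. The other, a polyprotein, was not called, with 1.38 and 0.315 CPM in GF, against 10.7 and 0.240 CPM in PU (XLOC_011784, edgeR adjusted p 0.404).

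**Figure D3:**
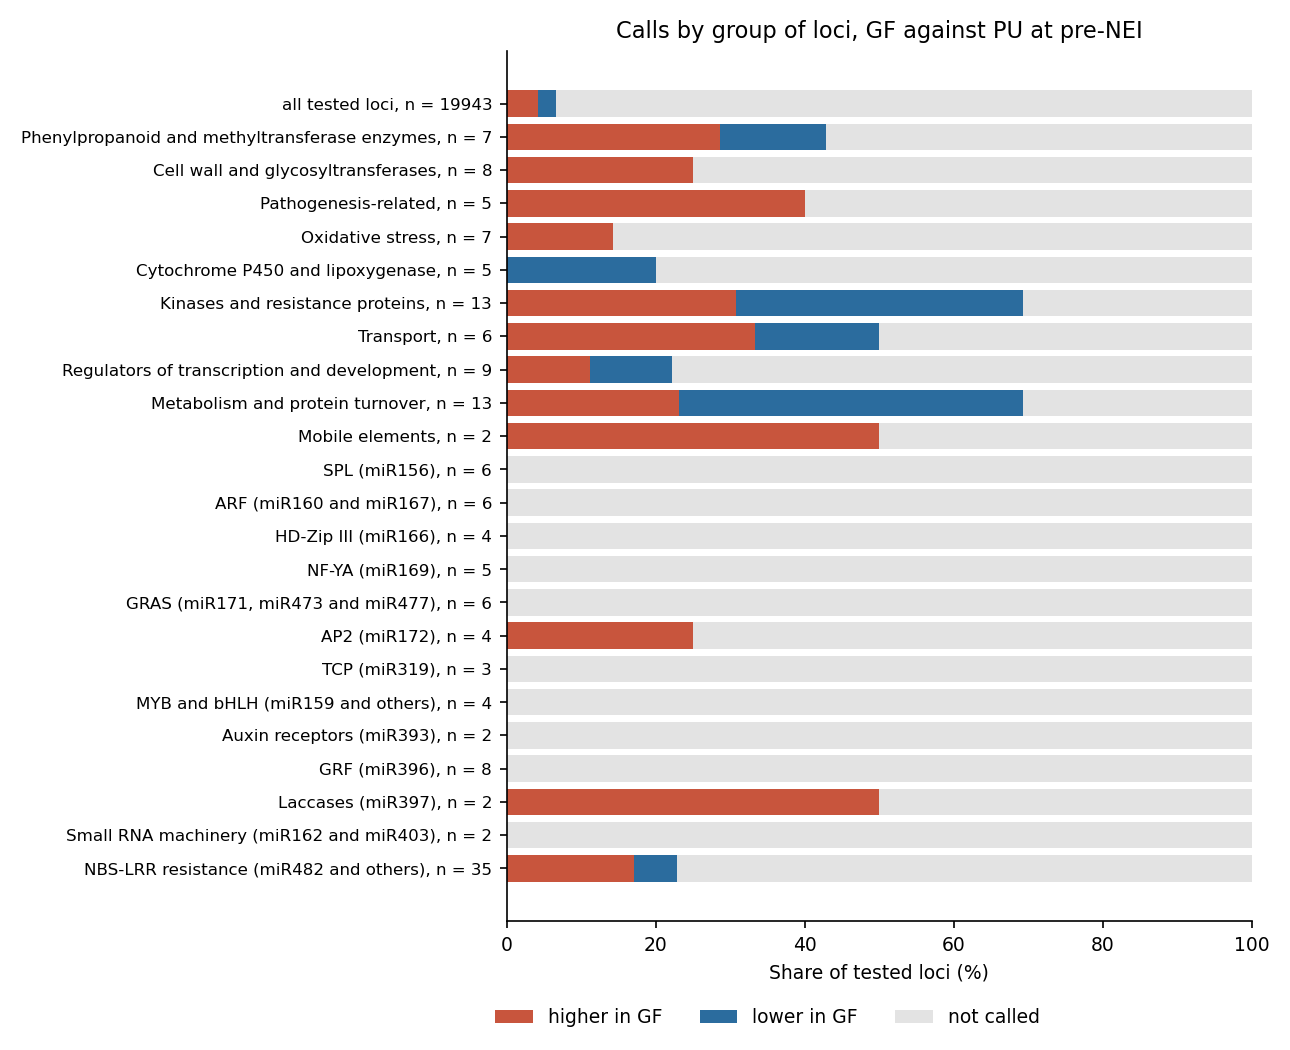
Share of the tested loci of each group that was higher in GF (red), lower in GF (blue) or not called (grey) at pre-NEI. All tested loci are in the top row, then the 10 groups formed here from the study's list and the 13 families of predicted miRNA targets. Groups of the list, which was partly chosen on these libraries, reach 69.2%, against 6.57% of all tested loci. Of the 13 target families 10 have no call, but all except NBS-LRR hold 8 or fewer tested loci. Over all target families 11.5% of 87 tested loci were called.

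Some named calls belonged to no group above. A ubiquitin precursor, for the tag that marks proteins for degradation (orange1.1t05622, XLOC_021664, unplaced sequence, 88685469 to 88685991), had 143 and 110.4 CPM in GF, against 1.52 and 0.881 CPM in PU. It was 106-fold higher in GF (6.69 ± 0.56, edgeR adjusted p 0.00477, and 7.88 in pooled FPKM) and held without any 1 library. Ubiquitin is made from several near-identical genes, so a difference between copies cannot be told apart here from one in the total. The probable LRR receptor-like kinase At3g47570-like (Cs6g02260, XLOC_012241, chromosome 6, 1802528 to 1806725) had 36.6 and 44.8 CPM in GF, against 1.90 and 2.08 CPM in PU (4.35 ± 0.89, edgeR adjusted p 0.0347). Its replicates lay close together within each cultivar. A gene annotated by similarity to human NEDD1, a microtubule-organising protein (orange1.1t05221, XLOC_021631), had 44.8 and 46.3 CPM in GF, against 18.7 and 20.7 CPM in PU (1.21 ± 0.25, adjusted p 0.0367). Towards PU, poly(ADP-ribose) polymerase 2, an enzyme of DNA repair (Cs5g33270, XLOC_010931), had 2.66 and 3.18 CPM in GF, against 15.5 and 13.9 CPM in PU (-2.33 ± 0.43, edgeR adjusted p 0.0265). An ankyrin repeat subunit of protein phosphatase 6 (Cs7g30680, XLOC_015317) had 4.99 and 3.25 CPM in GF, against 16.4 and 12.7 CPM in PU (-1.83 ± 0.41, adjusted p 0.0445).

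Except for the ubiquitin precursor, these calls were lost without any 1 pre-NEI library, and those of XLOC_012241, XLOC_021631 and XLOC_015317 also without 1 library of GF at 3 days, the last also without 1 library of PU at 3 days. Their highest adjusted p were 0.157 for the LRR receptor-like kinase, 0.187 for XLOC_021631, 0.144 for XLOC_010931 and 0.279 for XLOC_015317. With only the 4 pre-NEI libraries XLOC_021631 (0.0797), XLOC_010931 (0.0524) and XLOC_015317 (0.0986) were not called. XLOC_021631 did not pass the exact test either (0.0658), and summing transcripts ended the calls of XLOC_012241 (0.0720) and XLOC_015317 (0.0702), and XLOC_015317 was not called at 5 CPM (0.0570).

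Of called genes to which no function is given, 2 in each direction are named. Cs2g06900 (XLOC_002445, chromosome 2, 4040352 to 4043826) had 2799 and 3171 CPM in GF, against 638 and 789.5 CPM in PU (2.06 ± 0.47, edgeR adjusted p 0.0452). Cs4g18740 (XLOC_007661, chromosome 4, 18304639 to 18314532) had 978 and 1148 CPM in GF, against 100.2 and 114 CPM in PU (3.31 ± 0.39, adjusted p 0.00814, and 2.47 in pooled FPKM). Both genes were thus higher in each GF library than in either PU library, as was every locus called higher in GF. Cs1g23450 (XLOC_000765, chromosome 1, 25987828 to 25992025) was lower in GF, with 68.4 and 80.7 CPM in GF, against 306 and 358 CPM in PU (-2.15 ± 0.25, edgeR adjusted p 0.00766). Cs2g29220 (XLOC_004222, chromosome 2, 28777323 to 28780608) was lower as well, with 157 and 131 CPM in GF, against 365 and 335 CPM in PU (-1.28 ± 0.27, adjusted p 0.0372). In all 4 the replicates of a cultivar lay much closer to each other than to the other cultivar. XLOC_007661 lost its call without GF replicate 2 or PU replicate 1 (up to 0.0600) and XLOC_000765 without either GF replicate (up to 0.0619). XLOC_002445 (up to 0.216) and XLOC_004222 (up to 0.267) were lost without any 1 pre-NEI library or 1 library of GF at 3 days, the first also at 5 CPM (0.0583) and the second with only the 4 pre-NEI libraries (0.0675).

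MicroRNAs repress mRNAs by pairing with them, and targets were predicted by the study for conserved miRNAs and for others that it named miRN. Of 353 tested loci among all predicted targets, 13 were higher and 8 lower in GF (5.95%, close to the 6.57% of all loci; 41 by DESeq2 and 31 by the exact test), with a median log2 fold change of 0.014. In the AP2 family, transcription factors of flower development that miR172 targets, 1 of 4 loci was higher in GF. This TOE2-like gene (Cs6g04120, XLOC_011546, chromosome 6, 4751290 to 4755950) had 25.8 and 38.6 CPM in GF, against 1.52 and 0.561 CPM in PU (4.91 ± 0.67, edgeR adjusted p 0.0120), and was lost without GF replicate 2 (0.0686). Of the other members, picked out after their values were seen, a RAP2-7-like gene had 20.1 and 21.7 CPM in GF, against 0.651 and 2.32 CPM in PU (XLOC_015218, 3.84 ± 0.97, adjusted p 0.0614), and the APETALA 2-like gene had 66.0 and 129 CPM in GF, against 67.9 and 147 CPM in PU (XLOC_021401, -0.14 ± 0.53, adjusted p 0.901). The predicted laccase targets of miR397 were LAC and laccase-7-like, which was not called (3.99 and 5.83 CPM in GF, against 1.79 and 1.04 CPM in PU, XLOC_012388, edgeR adjusted p 0.108).

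Over all target families together, 8 of 87 tested loci were higher and 2 lower in GF (11.5% against 6.57% of all loci). The other 10 families were pooled because none of their loci was called. They were SPL, ARF, HD-Zip III, NF-YA, GRAS, TCP, MYB and bHLH, auxin receptors, GRF and small RNA machinery. By this choice the edgeR quasi-likelihood test called 0 of their 46 loci. Of these, 13 had an unadjusted p under 0.05 (23.7% among all loci), DESeq2 called 4 (13.1% among all loci) and the exact test called 1 (10.9% among all loci). The same choice bears on these counts, so they are no independent result. The median log2 fold change of the 46 loci was -0.26, and their values ran from -1.77 to 1.41. The loci nearest to a call, chosen after their values were seen, were growth-regulating factor 2, a promoter of organ growth, with 42.8 and 28.8 CPM in GF, against 126 and 78.4 CPM in PU (XLOC_010177, -1.51 ± 0.36, adjusted p 0.0514), and an HD-Zip III gene, of a family that sets the polarity of organs and ovule integuments, with 23.8 and 20.2 CPM in GF, against 43.2 and 45.4 CPM in PU (XLOC_000450, -1.01 ± 0.24, adjusted p 0.0545). All 6 GRAS loci, also picked out after their values were seen, had negative values, between -1.31 and -0.11, without passing the test. In 3 of the 6 both GF libraries lay below both PU libraries (25.5% among all loci). Among all tested loci 9943 of 19943 had positive values. With 2 libraries a cultivar, an adjusted p above the threshold does not show equal levels.

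Of the 6 predicted targets of the miRN23 precursor, 2 on chromosome 8 were lower in GF. The study places the precursor itself on the same strand of chromosome 8, within XLOC_016244 and outside XLOC_016248. Counts of XLOC_016244 may thus include the precursor's own transcript, which was not tested. The study also reported both mature miRNAs of this precursor as lower in GF at this stage. Cs8g13560 (XLOC_016248, 16334959 to 16335974) had 0.720 and 1.2 CPM in GF, against 23.3 and 10.6 CPM in PU (-4.11 ± 0.54, edgeR adjusted p 0.0112, and -2.11 in pooled FPKM). XLOC_016244 (16134179 to 16346648) had 21.9 and 22.7 CPM in GF, against 61.6 and 79.2 CPM in PU (-1.66 ± 0.34, adjusted p 0.0352), but spans 7 reference genes and contains XLOC_016248, so the 2 calls may share reads. The first was lost without either GF replicate (up to 0.0686), and the second without any 1 pre-NEI library or 1 library of PU at 3 days (up to 0.193) and with summed transcripts (0.0797). Cs9g06920 had 32.2 and 59.9 CPM in GF, against 16.8 and 36.1 CPM in PU (XLOC_017713, 0.80 ± 0.49, adjusted p 0.364). The SEC23-interacting protein (XLOC_013490), a jumonji transcription factor (XLOC_015110) and digalactosyldiacylglycerol synthase 2 (XLOC_020371, 2 reference genes) had log2 fold changes of 0.21, 0.30 and 0.40 and were not called (adjusted p 0.631, 0.587 and 0.391).

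The tissue was checked against a few regulators and markers of other tissues. All 4 HD-Zip III loci were detected in both cultivars, at 15.8 to 73.1 CPM in GF and 4.01 to 116 CPM in PU, whereas cup-shaped cotyledon 2, which marks organ boundaries, had 0.332 and 0.0630 CPM in GF, against 1.03 and 0.0801 CPM in PU. A B-class MADS-box gene of petals and stamens was at 1.38 and 0.599 CPM in GF, against 2.17 and 0.481 CPM in PU. A pollen-specific C13-like gene was present at 190.2 and 85.7 CPM in GF, against 224 and 131.6 CPM in PU, and did not pass the test (edgeR adjusted p 0.731). Of these 3 markers of other tissues (RbcS, the C13-like and the B-class gene), RbcS was the only one called, lower in GF, and the part of green or photosynthetic cells in the calls was not tested.

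The 5 loci of highest CPM with a given function among those not called were 3 cysteine proteases, arabinofuranosidase and a translation initiation factor. Cysteine proteinase RD21A-like, a vacuolar protease, had 2058 and 1845 CPM in GF, against 3597 and 2621 CPM in PU (XLOC_006378, -0.67 ± 0.45, edgeR adjusted p 0.403). The RD19A-like proteinase (XLOC_016113) and the cysteine protease CP precursor (XLOC_007258) had log2 fold changes of -0.26 ± 0.41 and 0.57 ± 0.47 (adjusted p 0.733 and 0.502). The initiation factor had 462 and 579 CPM in GF, against 494 and 493 CPM in PU (XLOC_010396, 0.08 ± 0.30, adjusted p 0.903). Without GF replicate 2 the log2 fold changes of arabinofuranosidase (XLOC_017543) and of the initiation factor turned negative (-0.78 and -0.087).

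**Figure D4:**
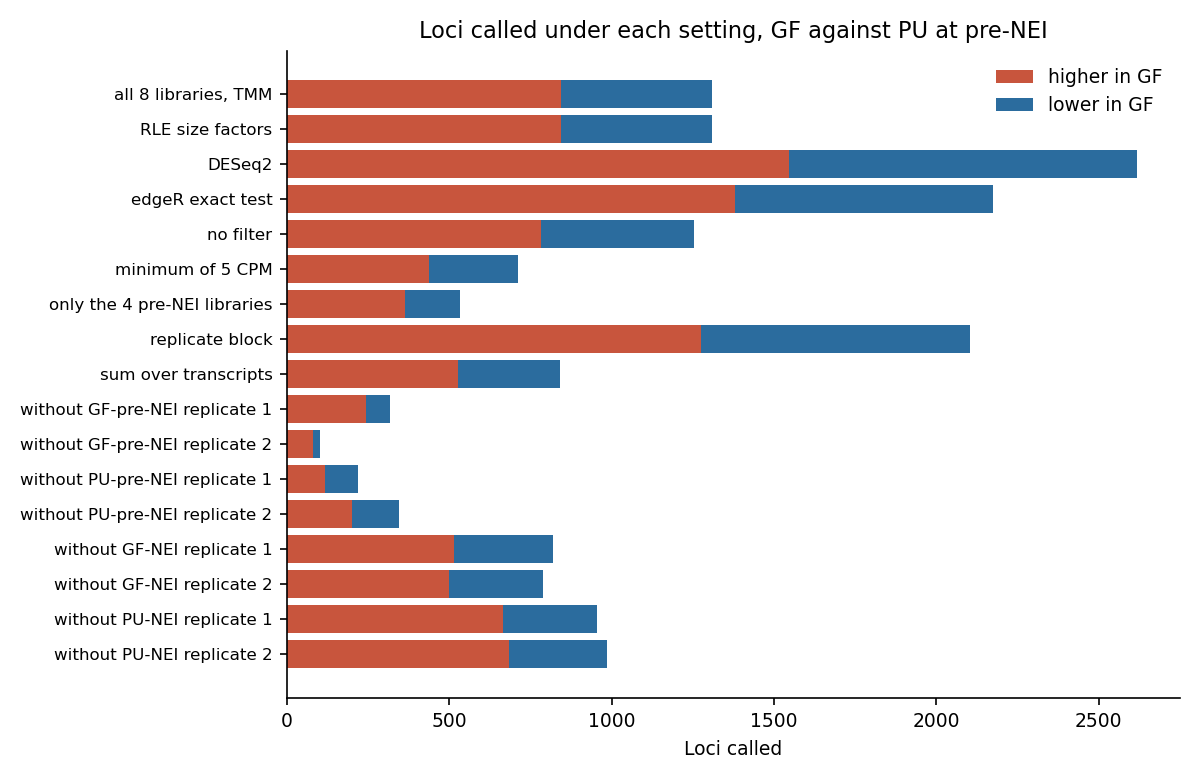
Number of loci called between GF and PU ovules at pre-NEI under each setting, with loci higher in GF in red and lower in GF in blue. The count is 1310 with all 8 libraries, 2619 with DESeq2 and 2105 with the replicate number as a block, and lowest, at 101, without GF replicate 2.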

How the data were processed

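Libraries of GF and PU ovules were used as labelled, 2 per cultivar and stage. Per the paper's methods, reads were aligned to the sweet orange genome (release not given in the sources used here) with TopHat and Bowtie and assembled with Cufflinks. The submitters' processing notes also name Cuffdiff. Versions, the read counter and its strand setting are not given in the sources used here, so overlapping and antisense loci are uncertain. The authors deposited whole numbers per transcript and library, which carry no unit in the file headers and were read as counts, and FPKM per cultivar and stage with replicates pooled. Further transcripts of a locus had a median of 0.807 times the count of its largest transcript, so each locus was represented by the transcript with the largest total over the 8 libraries (94049 transcripts, 22595 loci). The columns of the other cultivar pair were not used.

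Loci with at least 1 CPM in 2 libraries were tested with the edgeR 4.0.16 quasi-likelihood test (R 4.3.3, TMM normalisation) on all 8 libraries in 4 groups, which leaves 4 residual degrees of freedom, with Benjamini-Hochberg adjustment over the 19943 tested loci. SE values are the size of the log2 fold change over the square root of F. Folds against a cultivar without counts were set against 3 counts per library, and with 1 to 3 counts the ratio has an exact 95% binomial interval. Both cover counting error only. Alternatives were DESeq2 1.42.0, the edgeR exact test, RLE factors, other filters, summed transcripts, only the 4 pre-NEI libraries, a replicate block, pooled FPKM ratios and leaving out each library. An arm left with 1 library was assumed to vary like the other groups.

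Functions are those that the study's tables assign, and 378 tested loci had one. Of the list of 99 identifiers, 98 were in the table (76 loci). The missing one was AKN, an ankyrin repeat gene that the study reported as lower in polyembryonic ovules at pre-NEI. It is a different gene from the ankyrin repeat protein named above and could not be followed. One locus, a leucine-rich repeat protein, was too low to test. Of 428 predicted targets 367 were in the table. Named are the called loci of the lists and families, the 10 called loci of highest CPM with a function in each direction, 2 without a function in each direction, the 5 uncalled loci of highest CPM with a function, and LAC, CHI, ACTL, PHGPx, the glycosyltransferases UGT92A1 and UGT76C4 and the miRN23 targets. Other names are said to have been chosen after their values were seen, and tissue markers were taken from the same tables. The members and lists were chosen with earlier results of these data known.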

Additional observations from a re-analysis of the deposited data

How the results depend on the processing

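The 1310 calls (845 higher and 465 lower in GF) became 1309 with RLE size factors and 1253 without a filter. They became 2619 (1547 higher, 1072 lower) with DESeq2 and 2174 (1380 higher, 794 lower) with the edgeR exact test, and 1267 loci were called by all 3 tests. They became 713 (438 higher, 275 lower) at a minimum of 5 CPM, 533 (364 higher, 169 lower) with only the 4 pre-NEI libraries, and 842 (528 higher, 314 lower) with counts summed over transcripts. Without 1 library the count ran from 101 to 987 (81 to 684 higher and 20 to 307 lower in GF). Of the 53 named calls 9 held in all 8 such fits. Of the 53, 53 were called by DESeq2, 52 by the exact test, 30 with only the 4 pre-NEI libraries, 41 of the 47 tested at 5 CPM and 44 of the 51 tested with summed transcripts. With the replicate number as a block 2105 loci were called (1274 higher, 831 lower), among them 1303 of the 1310 and all 53 named calls. Of the groups, it called 5 of 7 phenylpropanoid and methyltransferase loci, against 3 without it, 2 of 7 oxidative stress loci, against 1, 10 of 35 NBS-LRR loci, against 8, and 2 of the 46 loci in families without a call. The shifts between replicates 1 and 2 correlated by 0.624 between GF and PU at pre-NEI, the groups compared here, and down to 0.0726 between other groups. No source used here ties replicate numbers to years, so the main fit did not pair the libraries. The counts with the block are those with replicate numbers taken into account. Named directions turned in 3 cases, XLOC_010396 (-0.087 without GF replicate 2, within -0.087 to 0.24 over the 8 libraries left out) and XLOC_017543 (-0.78 without GF replicate 2, within -0.78 to 3.35), neither of them called, and XLOC_019884 in pooled FPKM (0.54). The cause was not tested. Log2 ratios of pooled FPKM of 15 other named loci differed from the fitted value by more than its SE without turning. Depth limits values near 0.0945 to 0.24 CPM, where a count of 0 cannot be told from a low level.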
